A study of Mus musculus with 6 samples.

Results

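Necroptosis and the detection of nucleic acid in the cytosol depend on a small set of genes, and 10 of them are described here in MLL-AF9 leukemia cells with and without pharmacological activation of p53. The members were set by name, as Ddx58, Ifih1, Dhx58, Mavs, Tmem173, Mb21d1, Zbp1, Aim2, Ripk3 and Mlkl, and all 10 were found among the 26082 different names of the expression table. Mb21d1, which encodes cGAS, was listed under its older symbol E330016A19Rik, and the other members stood under their own symbols. MLL-AF9 cells were made by retroviral transduction of C57BL/6J bone marrow progenitors with the MLL-AF9 fusion oncogene and were passaged through several rounds of transplantation, so they model acute myeloid leukemia driven by 1 oncogene. Recipients with leukemia received vehicle (3 samples) or DS-5272, an inhibitor of the p53-MDM2 interaction, as 80 mg/kg by mouth (3 samples), and leukemia cells were sorted from bone marrow 24 h later for RNA-Seq. All samples carry MLL-AF9, and the age and sex of the mice are not given in the sources used here. The labels do not say that each sample is a separate mouse, so p-values measure the spread between these samples, which may be technical.

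Cells carry sensors for RNA and DNA that appear where they should not be. RIG-I and MDA5, encoded by Ddx58 and Ifih1, bind viral or misplaced cellular RNA and signal through the mitochondrial adaptor MAVS, while cGAS binds cytosolic DNA and makes a cyclic dinucleotide that activates STING, encoded by Tmem173. Both routes converge on the kinase TBK1 and the transcription factor IRF3 and induce interferon, and many of the sensors are themselves interferon-inducible. ZBP1 binds nucleic acid in the left-handed Z form and can engage the kinase RIPK3, which phosphorylates MLKL, the protein that breaks the plasma membrane in necroptosis, a lytic form of cell death.

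The deposited values are FPKM, fragments scaled to transcript length and library size, so levels of different genes can be compared per length. The depth, estimated from the steps between low values, was 34700000 to 43000000 fragments with vehicle and 23200000 to 32100000 with DS-5272. By that estimate the smallest member value, that of Mb21d1 in DS-5272 replicate 3, rests on roughly 570 fragments. All 10 members had a mean of at least 1 FPKM and entered the comparison with limma on log2(FPKM + 1), with Benjamini-Hochberg adjustment over all 11130 genes that did. Log2 fold changes are DS-5272 minus vehicle on that scale, SE is the standard error, and triplets of values follow the order of replicates 1, 2 and 3. Same-numbered samples deviated together, although pairs 2 and 3 were not set apart from the crossed ones. A fit that blocks on this number is given where it changes a call. These pairs were read from the same values and no label names them, so a pass with the block alone is not independent support. Gene positions are those of GENCODE on GRCm38.

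The myeloid gene Itgam was at 140, 175 and 190 FPKM with vehicle and at 530, 646 and 1087 FPKM with DS-5272, and Ptprc, Spi1 and Lyz2 also rose. Mpo, the gene of a granule enzyme of immature myeloid cells, was at 218, 140 and 325 FPKM with vehicle and at 3.77, 12.2 and 3.25 FPKM with DS-5272 (log2 fold change −5.07, limma adjusted p = 0.00136). Kit, the gene of a progenitor receptor, also fell (log2 fold change −1.96, limma adjusted p = 0.00462), and Meis1 did not pass (limma adjusted p = 0.310). NK-cell and T-cell markers were low, with 8 of 9 and 6 of 7 genes under 1 FPKM in all samples, and none was tested. Gzma and Cd4 exceeded 1 FPKM with DS-5272. The summed level of the NK-cell list was 0.677 to 1.21 FPKM with vehicle and 2.45 to 4.30 FPKM with DS-5272. That of the T-cell list was 0.343 to 0.561 FPKM with vehicle and 0.973 to 3.80 FPKM with DS-5272. The summed level of 12 markers of bone marrow macrophages was 63.6 to 117 FPKM with vehicle and 204 to 471 FPKM with DS-5272, and 5 of the 10 tested markers rose. In every sample but DS-5272 replicate 1, most of that sum was Vcam1 and Adgre1. Adgre1 rose (limma adjusted p = 0.00247). Vcam1 was at 36.6, 64.1 and 82.8 FPKM with vehicle and at 143, 74.8 and 85.7 FPKM with DS-5272 and did not pass (limma adjusted p = 0.125). The paper reports more VCAM-1 in the c-Kit+ population after DS-5272, so Vcam1 RNA need not come from macrophages. The 12 markers, other than Adgre1, were highest in DS-5272 replicate 1, as Cd5l was at 61.7, 1.76 and 4.43 FPKM with DS-5272, while none of the 12 was at 0 in all samples and Marco was at 0 in each vehicle sample. The summed level of the erythroid markers, mostly the globin genes Hba-a1 and Hba-a2, was 2.53 to 4.70 FPKM with vehicle and 12.8 to 147 FPKM with DS-5272. That of the stroma and endothelium list was 29.1 to 60.1 FPKM with vehicle and 73.4 to 113 FPKM with DS-5272. Most of it was Pecam1, which rose (log2 fold change 1.19, limma adjusted p = 0.0246), and 7 of the 9 genes were under 1 FPKM in all samples. Siglech, the defining marker of plasmacytoid dendritic cells, was at 0 in 5 samples and at 0.013 FPKM in DS-5272 replicate 1, and 6 of the 9 genes of that list were under 1 FPKM in all samples. The summed level of the list was nevertheless 162 to 239 FPKM with vehicle and 373 to 495 FPKM with DS-5272, as Bst2 and Irf8 rose by 1.16 and 1.24 on the log2 scale (limma adjusted p = 0.00774 and 0.00322). The part of macrophage, dendritic, erythroid, stromal and endothelial cell RNA in the results was not tested, and values without DS-5272 replicate 1 are given beside those that move. In bulk RNA a larger share of cells of a type and more RNA per cell cannot be told apart.

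The RNA sensors, their adaptor, Zbp1 and Mlkl were higher after DS-5272, whereas Ripk3 and Aim2 did not pass the test. Of the 10 members, 6 rose at an adjusted p under 0.05, where 24.2% of all tested genes rose, and 0 fell, where 22.0% of all tested genes fell. The 6 were Zbp1, Dhx58, Ddx58, Mavs, Ifih1 and Mlkl. As the members were chosen with earlier results of these data known, counts beside shares describe them and test nothing. With the replicate block 7 members rose and 1 fell, which added a rise of Tmem173 and a fall of Mb21d1, against 30.3% and 24.9% of all tested genes. The groups did not overlap for 8 members, 7 higher and 1 lower with DS-5272, where 32.1% and 29.7% of all tested genes stood apart in these directions. The median log2 fold change of the members was 0.69, beside 0.04 over all tested genes. Zbp1, Dhx58 and Ddx58 were the members that rose by at least 1 on the log2 scale, as did 8.79% of all tested genes.

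**Figure D1:**
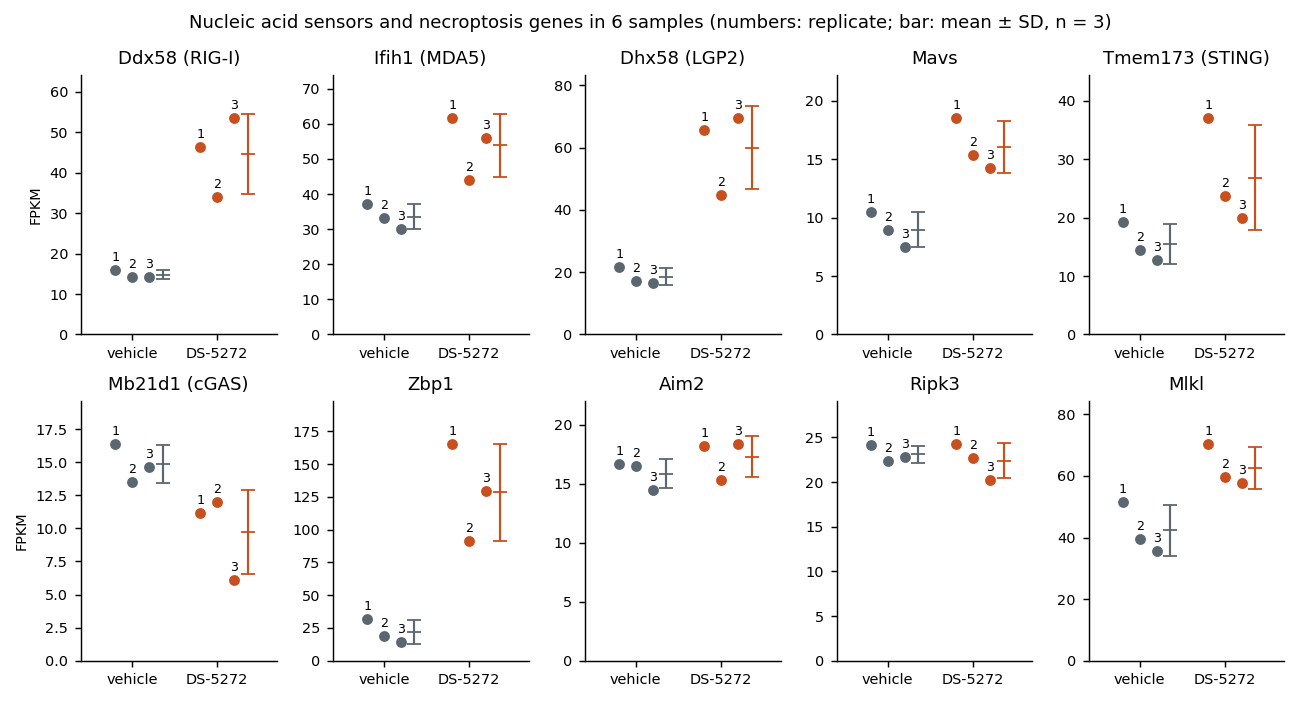
FPKM (vertical axes, each from 0) of the 10 members in the vehicle samples (grey) and the DS-5272 samples (orange), with the replicate number above each point and the mean ± SD of each group at its side. The groups lie apart for every member but Aim2 and Ripk3, and Mb21d1 is the member that lies lower with DS-5272.

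The motif bound by interferon-activated factors was searched in RefSeq promoter windows (GRCm38.p6), from 250 bases before to 50 bases after the start of a gene. Windows were found for 7 members (Ddx58, Ifih1, Mavs, Mb21d1, Aim2, Ripk3 and Mlkl). None was found for Tmem173 or for Zbp1 and Dhx58, the members with the largest rises. The window of Aim2, at chr1:173420354-173420653, lies inside the GENCODE gene and not at its start. The core of the interferon-stimulated response element (ISRE), GAAANNGAAA on either strand, was in 2 of the 7 windows, those of Ddx58 and Ifih1, and in windows of 3.99% of 27025 genes. Both matches lie after the start of the gene, at bases 3 to 12 of Ddx58 and 33 to 42 of Ifih1, so a window that ends at the start holds 0 of the 7. The stretches are shown, with the match in capitals, because both genes are RNA sensors that rose. They lie on the minus strand, at chr4:40239806-40239831 for Ddx58 and chr2:62646206-62646231 for Ifih1.
Ddx58: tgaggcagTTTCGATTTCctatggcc
Ifih1: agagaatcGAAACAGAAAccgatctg
The match in Ddx58 reads on the opposite strand and that in Ifih1 on the strand of the gene. The GAS core TTCNNNGAA, the p53 half-site and the NF-kB site, each on either strand, had a match in 0 of the 7 windows, against windows of 9.55%, 9.55% and 7.81% of all genes.

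Among the RIG-I-like receptors, a family of RNA helicases, the genes of RIG-I and LGP2 changed most. Ddx58 (chromosome 4, 40203773 to 40239828, minus strand), the gene of RIG-I, had 16.0, 14.1 and 14.2 FPKM with vehicle and 46.5, 34.1 and 53.6 FPKM with DS-5272. All DS-5272 samples lay above all vehicle samples, and the log2 fold change was 1.51 (SE 0.17, limma adjusted p = 0.00212). Dhx58 (chromosome 11, 100694884 to 100704271, minus strand) encodes LGP2, which lacks the signaling domains of RIG-I and modulates its relatives. It had 21.6, 17.2 and 16.7 FPKM with vehicle and 65.5, 44.8 and 69.6 FPKM with DS-5272, a log2 fold change of 1.63 (SE 0.19, limma adjusted p = 0.00227). DS-5272 replicate 2 was the lowest of its group for both genes and still lay above every vehicle sample. An antisense transcript overlaps an exon of Dhx58, and while the libraries were strand-specific, the sources used here do not say whether the FPKM estimation used strand.

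Ifih1 (chromosome 2, 62595798 to 62646255, minus strand) encodes MDA5, the receptor for long RNA duplexes, and had the smaller rise. It had 37.3, 33.3 and 30.1 FPKM with vehicle and 61.7, 44.1 and 55.9 FPKM with DS-5272. The groups did not overlap, and the log2 fold change was 0.66 (SE 0.15, limma adjusted p = 0.0133). Its call was lost without vehicle replicate 2 or 3 (limma adjusted p = 0.0511 and 0.0527) and after rescaling to a common total (0.156), and its adjusted p ran from 0.00685 to 0.156. The level of Ifih1 was above that of Ddx58 in every sample, at means of 33.6 ± 3.57 FPKM (SD, n = 3) and 14.8 ± 1.07 FPKM (SD, n = 3) with vehicle and of 53.9 ± 8.97 FPKM (SD, n = 3) and 44.7 ± 9.89 FPKM (SD, n = 3) with DS-5272.

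Mavs (chromosome 2, 131234063 to 131248025, plus strand), the gene of the adaptor that both receptors act through, was the lowest of the 10 members with vehicle. It had 10.5, 8.95 and 7.49 FPKM with vehicle and 18.5, 15.3 and 14.2 FPKM with DS-5272, with every DS-5272 value above every vehicle value. The log2 fold change was 0.77 (SE 0.15, limma adjusted p = 0.00861), and the folds between same-numbered samples were 1.77, 1.71 and 1.90. Rescaling to a common total ended the call (limma adjusted p = 0.103), and the adjusted p ran from 0.00271 to 0.103.

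On the DNA side, the genes of cGAS and STING missed the threshold without the replicate block, with changes of opposite sign. They passed with the block, which rests on pairs read from these same data. Tmem173 (chromosome 18), the gene of STING, had 19.3, 14.5 and 12.8 FPKM with vehicle and 37.1, 23.6 and 19.9 FPKM with DS-5272. The lowest DS-5272 value was just above the highest vehicle value. The log2 fold change was 0.72 (SE 0.25) and missed the threshold (limma adjusted p = 0.0516), while it passed with the replicate block (limma adjusted p = 0.00387), and the adjusted p ran from 0.00387 to 0.287. It also passed with the low-value filter raised to 5 FPKM (0.0490 from limma) and without DS-5272 replicate 3 (0.0327), and missed the threshold in the other 13 of 16 alternatives. The folds between same-numbered samples were 1.92, 1.63 and 1.55. Tmem173 was highest in DS-5272 replicate 1, the sample with the most macrophage marker RNA, and without it the log2 fold change was 0.48 (limma adjusted p = 0.0858).

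Mb21d1 (chromosome 9, 78430526 to 78443237, minus strand) had 16.4, 13.5 and 14.7 FPKM with vehicle and 11.1, 12.0 and 6.07 FPKM with DS-5272, and every DS-5272 value lay below every vehicle value. The log2 fold change was −0.61 (SE 0.24, limma adjusted p = 0.0736, and 0.0421 with the replicate block), and the adjusted p ran from 0.0421 to 0.182. The size of the change rested on DS-5272 replicate 3, without which it was −0.33 (limma adjusted p = 0.0589). By pairs, DS-5272 was at 0.681, 0.888 and 0.414 times vehicle. A gene on the opposite strand overlaps an exon of Mb21d1.

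Aim2 (chromosome 1, 173350879 to 173466040, plus strand) encodes the sensor that builds an inflammasome on cytosolic DNA. It had 16.7, 16.5 and 14.4 FPKM with vehicle and 18.3, 15.3 and 18.4 FPKM with DS-5272, and the groups overlapped. The log2 fold change was 0.12, with a 95% confidence interval of −0.15 to 0.39 (limma adjusted p = 0.415). Its sign turned after rescaling to a common upper quartile or a common total.

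Zbp1 (chromosome 2, 173206612 to 173218923, minus strand) had the largest change of the members. It had 31.8, 19.0 and 14.4 FPKM with vehicle and 165, 91.2 and 129 FPKM with DS-5272. The lowest DS-5272 value was well above the highest vehicle value, and the log2 fold change of 2.54 (SE 0.32, limma adjusted p = 0.00274) was higher than that of 98.9% of the tested genes. The folds between same-numbered samples were 5.20, 4.80 and 9.00. Its change was 2.34 without DS-5272 replicate 1, and the call held in all 16 alternatives.

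The genes of the necroptosis machinery that acts after ZBP1 had unlike values. Ripk3 (chromosome 14, 55784995 to 55788865, minus strand), the gene of the kinase, had 24.2, 22.4 and 22.8 FPKM with vehicle and 24.2, 22.7 and 20.3 FPKM with DS-5272. The groups overlapped, and the log2 fold change was −0.05 with a 95% confidence interval of −0.29 to 0.20 (limma adjusted p = 0.732). Mlkl (chromosome 8, 111311797 to 111338177, minus strand), the gene of the executioner, had 51.7, 39.6 and 35.8 FPKM with vehicle and 70.3, 59.8 and 57.8 FPKM with DS-5272, without overlap. Its log2 fold change was 0.57 (SE 0.16, limma adjusted p = 0.0260).

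The call of Mlkl was lost in 7 of 16 alternatives, more than for the other members that rose, with an adjusted p from 0.00552 to 0.318. It was lost after rescaling to a common upper quartile or total and after quantile normalization (limma adjusted p = 0.109, 0.318 and 0.149). It was also lost without vehicle replicate 2 or 3 or DS-5272 replicate 1 or 2 (limma adjusted p = 0.0920, 0.0906, 0.0601 and 0.0515). Rescaling to a common total moved the median of all tested genes from 0.04 to −0.19. Relative to that median, Mlkl was higher by 0.52 as deposited and by 0.50 after rescaling, and Ifih1 by 0.62 and 0.59. After rescaling 3 members rose, Zbp1, Dhx58 and Ddx58, where 15.4% of all tested genes rose.

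**Figure D2:**
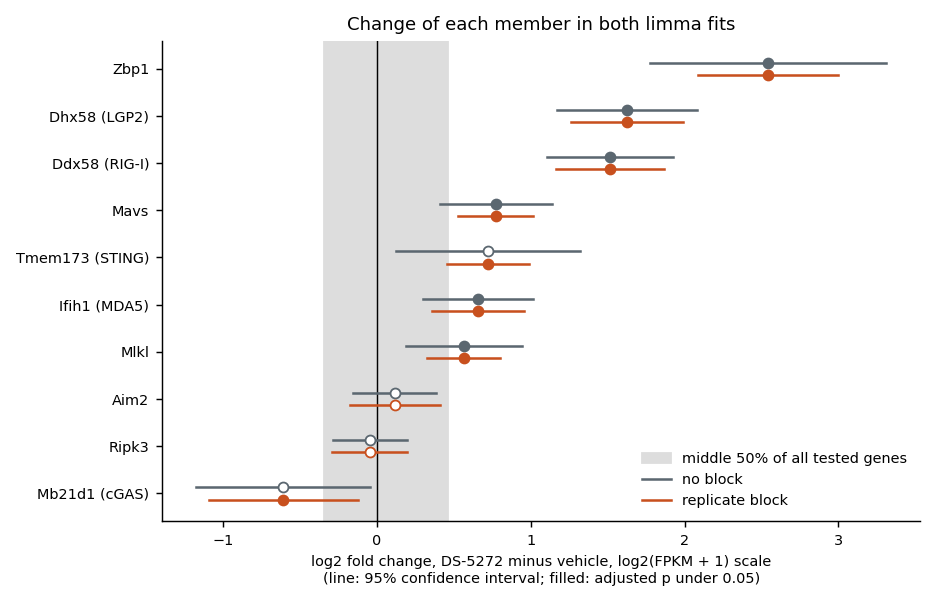
Log2 fold change (horizontal axis, DS-5272 minus vehicle) of each member with its 95% confidence interval from limma without a block (grey) and with the replicate number as a block (orange), filled where the adjusted p is under 0.05, over the middle 50% of all tested genes (shaded). Zbp1, Dhx58 and Ddx58 lie at 1.51 or above, and of the 2 fits shown Tmem173 and Mb21d1 pass in the one with the block.

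Ratios between members within a sample do not depend on how libraries are scaled. For 5 ratios the groups were compared with an exact two-sided permutation test, which cannot go below p = 0.1 with 3 samples against 3 and so cannot pass 0.05. Zbp1 was at 1.31, 0.850 and 0.630 times the FPKM of Ripk3 with vehicle and at 6.81, 4.02 and 6.38 times with DS-5272, a difference of 2.65 in the mean log2 ratio (exact permutation p = 0.1, adjusted p = 0.167 over the 5 ratios). Mlkl was at 2.14, 1.77 and 1.57 times Ripk3 with vehicle and at 2.90, 2.63 and 2.85 times with DS-5272, a difference of 0.62 (exact permutation p = 0.1, adjusted p = 0.167). The groups did not overlap for either ratio.

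The ratio of Mb21d1 to Tmem173 also separated the groups. It was 0.846, 0.933 and 1.14 with vehicle and 0.300, 0.507 and 0.305 with DS-5272, a difference of −1.43 in the mean log2 ratio (exact permutation p = 0.1, adjusted p = 0.167). The ratio of Dhx58 to Ddx58 was 1.35, 1.22 and 1.18 with vehicle and 1.41, 1.32 and 1.30 with DS-5272, and the groups overlapped (exact permutation p = 0.3). The ratio of Ifih1 to Mavs was 3.55, 3.72 and 4.03 with vehicle and 3.33, 2.88 and 3.93 with DS-5272, again with overlap (exact permutation p = 0.3).

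**Figure D3:**
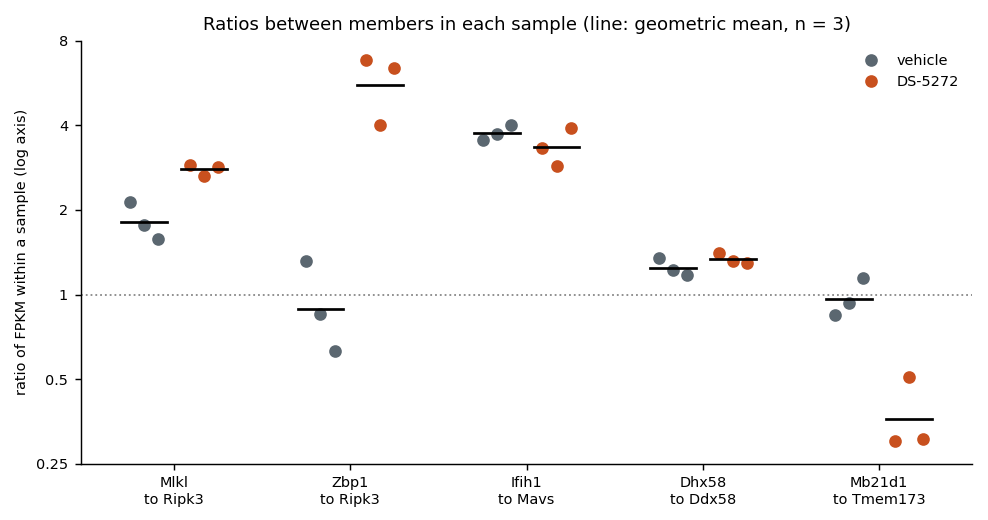
Ratio of the FPKM of 2 members within each sample (vertical axis, log scale) for vehicle (grey) and DS-5272 (orange), with the geometric mean of each group as a line and the ratio of 1 dotted. Zbp1 to Ripk3 lies higher with DS-5272 and Mb21d1 to Tmem173 lower, without overlap, while Ifih1 to Mavs and Dhx58 to Ddx58 overlap.

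The order of the levels differed between the groups. With vehicle, Mlkl (42.3 FPKM) and Ifih1 (33.6 FPKM) had the highest means, with overlapping ranges. Ripk3 (23.1 FPKM), Zbp1 (21.7 FPKM) and Dhx58 (18.5 FPKM) followed, each overlapping the next. Aim2, Tmem173, Mb21d1 and Ddx58 formed a run of overlapping neighbours from 15.9 to 14.8 FPKM, and Mavs stood below them at 8.98 FPKM. With DS-5272, Zbp1 stood alone at the top with 129 ± 37.0 FPKM (SD, n = 3), against 21.7 ± 9.00 FPKM (SD, n = 3) with vehicle. Mlkl (62.6 FPKM), Dhx58 (60.0 FPKM), Ifih1 (53.9 FPKM) and Ddx58 (44.7 FPKM) came next, each overlapping the next. Mb21d1 was the lowest member with DS-5272, at 9.73 ± 3.20 FPKM (SD, n = 3), and did not overlap Mavs above it.

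Samples of a group deviated alike for many members. In the vehicle group replicate 1 was the highest for all 10 members, while it was the highest for 41.2% of all tested genes. In the DS-5272 group replicate 1 was the highest for 6 members, replicate 3 for 3 and replicate 2 for 1, while over all tested genes these samples were the highest for 27.7%, 48.7% and 23.7%. The lowest was replicate 2 or replicate 3, for 5 members each.

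For each member the tested gene with the most similar profile was sought by Pearson's r of log2(FPKM + 1) over the 6 samples, which share libraries and the treatment contrast. It was Tmem184b for Ddx58 (r = 0.9995), Ttc12 for Dhx58 (0.9995), Ocel1 for Zbp1 (0.9991), Slc35a5 for Ifih1 (0.9976) and Fap for Mavs (0.9959). It was Ppfia4 for Mlkl (0.9958), Gm19657 for Mb21d1 (0.9985), Ppap2c for Tmem173 (0.9943), Ahsa1 for Ripk3 (0.9850) and Zfp677 for Aim2 (0.9794). Pearson's r takes no account of size or level. The log2 fold change of Ocel1 was 0.46, against 2.54 for Zbp1, and Fap was at 0.928, 0.718 and 0.433 FPKM with vehicle. With Ddx58, 1196 tested genes exceeded r = 0.95 and with Zbp1 628 did, against 22 with Ripk3 and 11 with Aim2.

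Other genes of these pathways were taken from 5 lists written by role, with earlier results of these data known. Their counts beside the shares of all tested genes are therefore a description and not a test. They hold 111 genes, of which 88 were tested, 12 lay below a mean of 1 FPKM, 10 lay in entries that join several genes and 1 had no entry. In all, 42 rose and 14 fell at an adjusted p under 0.05 from limma, where 24.2% and 22.0% of all tested genes did. The counts of each list below stand beside these shares, and with the replicate block beside 30.3% and 24.9%. For 27 of the 87 tested genes that could be placed on the genome an exon overlaps another gene, as for Irf7, Ikbke, Traf5, Rnaseh2b, Banf1, Hmgb1 and Pgam5, and their values can include its fragments.

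Of 17 tested partners of the RNA sensors, 9 rose, 2 fell and 6 did not pass, with a median log2 fold change of 0.38, where 24.2% of all tested genes rose and 22.0% fell. The replicate block gave 10 rises and 2 falls. Without vehicle replicate 1, 2 or 3, the partners that rose numbered 5, 4 and 5, and 1 fell in each case. Calls were fewer over the whole table too. In these fits 1940, 1623 and 1799 of the 11130 tested genes rose, against 2697 with all samples. Falls numbered 1664, 1389 and 1492, against 2451. The largest rises were those of oligoadenylate synthetases, enzymes that respond to RNA duplexes and activate RNase L. Oas3 had 11.2, 6.96 and 6.20 FPKM with vehicle and 59.8, 38.4 and 70.6 FPKM with DS-5272 (log2 fold change 2.65, limma adjusted p = 0.00176), and Oas2 rose by 1.79 (limma adjusted p = 0.00265). The Oas genes are close paralogs that can share fragments. Zc3h12a, the gene of an RNase that degrades inflammatory transcripts, had 4.30, 7.73 and 10.2 FPKM with vehicle and 13.8, 29.9 and 43.6 FPKM with DS-5272. It rose by 1.77 (limma adjusted p = 0.0182), a call lost without vehicle replicate 1 or 2 or DS-5272 replicate 2 (limma adjusted p from 0.000670 to 0.0556 over its alternatives). Zcchc3 is the gene of a co-sensor that helps the RNA receptors and cGAS bind their ligands. It had 4.65, 2.98 and 2.73 FPKM with vehicle and 1.42, 0.757 and 0.410 FPKM with DS-5272. It fell by 1.27 on the log2 scale (limma adjusted p = 0.00889). Zcchc3 is a low gene that reached a mean of 1 FPKM only through the vehicle samples. Its mean was 3.45 FPKM with vehicle and 0.864 FPKM with DS-5272. Trim25, the gene of a ubiquitin ligase linked to RIG-I activation, had a log2 fold change of 0.66 (limma adjusted p = 0.0537, and 0.00377 with the replicate block).

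Of 19 tested partners of the DNA sensors, 5 rose, 7 fell and 7 did not pass, with or without the block, and the median log2 fold change was −0.07. The share that rose is near the 24.2% of all tested genes that rose, and 22.0% of all tested genes fell. Hmgb1, the gene of an abundant chromatin protein, had 283, 257 and 259 FPKM with vehicle and 104, 144 and 94.7 FPKM with DS-5272 and fell by 1.24 on the log2 scale (limma adjusted p = 0.00334). Banf1, whose product coats DNA and keeps cGAS from it, fell by 1.31 on the log2 scale (limma adjusted p = 0.00373). The genes of all 3 subunits of RNase H2, which removes ribonucleotides from DNA, fell. Rnaseh2b had 40.2, 35.3 and 37.1 FPKM with vehicle and 14.7, 20.2 and 10.2 FPKM with DS-5272 (log2 fold change −1.31, limma adjusted p = 0.00582), and Rnaseh2a and Rnaseh2c had log2 fold changes of −0.76 and −0.52 (limma adjusted p = 0.00447 and 0.0147). In the other direction, Samhd1, the gene of a dNTP hydrolase, had 32.8, 28.8 and 28.5 FPKM with vehicle and 135, 142 and 204 FPKM with DS-5272 (log2 fold change 2.35, limma adjusted p = 0.000687). Adar, whose product edits RNA duplexes so that MDA5 does not bind them, rose by 0.61 (limma adjusted p = 0.0221), a call lost in 7 of 16 alternatives. Ifi204, of the AIM2-like receptor family, had 7.22, 3.03 and 2.99 FPKM with vehicle and 76.1, 45.4 and 67.7 FPKM with DS-5272 (log2 fold change 3.62, limma adjusted p = 0.00121), a value made uncertain by its near-identical family members. Pyhin1, of the same family, had 35.8, 22.2 and 18.5 FPKM with vehicle and 164, 82.0 and 127 FPKM with DS-5272 (log2 fold change 2.24, limma adjusted p = 0.00369). Dnase1l1 rose by 1.51 (limma adjusted p = 0.00334). The calls of Pyhin1 and Dnase1l1 held in all 16 alternatives.

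In the signaling layer below MAVS and STING, of 20 tested genes 11 rose, 1 fell and 8 did not pass, with a median of 0.41, beside 24.2% of all tested genes that rose and 22.0% that fell. With the replicate block 12 rose and 0 fell. Irf7, the gene of the interferon-inducible relative of IRF3, had 55.7, 34.0 and 26.5 FPKM with vehicle and 278, 147 and 190 FPKM with DS-5272 (log2 fold change 2.39, limma adjusted p = 0.00333). Irf3 itself had 30.2, 28.9 and 29.7 FPKM with vehicle and 35.8, 38.6 and 41.6 FPKM with DS-5272 (log2 fold change 0.37, limma adjusted p = 0.0182), a call lost in 4 of 16 alternatives. Ikbke, the gene of a kinase related to TBK1, and Traf5 rose by 1.33 and 0.82 (limma adjusted p = 0.0139 and 0.00359). Map3k7, the gene of the kinase TAK1, fell by 0.27 on the log2 scale (limma adjusted p = 0.0439), a call lost with the replicate block (0.0604) and in 5 of the 6 fits that left out 1 sample. Without vehicle replicate 1, 2 or 3, the genes of this list that rose numbered 6, 4 and 6. In the same fits 1940, 1623 and 1799 of the 11130 tested genes rose, against 2697 with all samples.

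Of 24 tested regulators of necroptosis, 11 rose, 4 fell and 9 did not pass, with a median of 0.41, beside 24.2% and 22.0% of all tested genes. With the replicate block 14 rose and 5 fell, beside 30.3% and 24.9%. Tnfaip3, the gene of the ubiquitin-editing enzyme A20, had 4.54, 49.1 and 71.0 FPKM with vehicle and 21.7, 185 and 271 FPKM with DS-5272, with overlap. Its log2 fold change of 1.95 was the largest of the list and passed with the block (limma adjusted p = 0.000317) but not without it (0.231). Without any 1 of the vehicle replicates, 2 genes of the list fell. Without vehicle replicate 1, 2 or 3, falls over the 11130 tested genes numbered 1664, 1389 and 1492, against 2451 with all samples. Casp8 and Cflar, whose products restrain RIPK1 and RIPK3, rose by 0.66 and 0.76 (limma adjusted p = 0.0103 and 0.00831), while Fadd, the gene of their adaptor, had 12.1, 10.6 and 10.2 FPKM with vehicle and 7.10, 7.73 and 5.48 FPKM with DS-5272 and fell (log2 fold change −0.63, limma adjusted p = 0.0129). Birc3, the gene of a ubiquitin ligase for RIPK1, had 17.1, 19.0 and 17.7 FPKM with vehicle and 30.4, 34.6 and 56.6 FPKM with DS-5272 (log2 fold change 1.08, limma adjusted p = 0.00985). Tnfrsf1a, the gene of a TNF receptor that can start necroptosis, rose by 0.86 (limma adjusted p = 0.00265). Chmp4b, of the ESCRT-III complex that repairs the membrane after MLKL damage, rose by 0.79 (limma adjusted p = 0.00677). Pgam5, the gene of a mitochondrial phosphatase, had 20.9, 20.7 and 21.4 FPKM with vehicle and 13.5, 15.1 and 9.93 FPKM with DS-5272 and fell by 0.69 on the log2 scale (limma adjusted p = 0.0125). Ripk1 had 24.4, 23.7 and 24.6 FPKM with vehicle and 27.7, 29.5 and 36.2 FPKM with DS-5272, a log2 fold change of 0.34 (limma adjusted p = 0.0537, and 0.0437 with the replicate block).

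Among the genes that these pathways induce, Ifna1, Ifna2, Ifna4, Ifnl2 and Ifnl3 were listed at 0 in all samples. Ifnb1, the gene of interferon beta, was listed at 0 in each vehicle sample and at 0.187, 0.107 and 0.0648 FPKM with DS-5272, below the level that was tested. At the estimated depth, values this close to 0 rest on very few fragments. Of the 8 genes of the list that were tested, 6 rose and 0 fell, beside 24.2% and 22.0% of all tested genes. Their median log2 fold change was 1.75. Ccl5, among the 6, reached a mean of 1 FPKM only through the DS-5272 samples. Its mean was 0.986 FPKM with vehicle and 2.59 FPKM with DS-5272. Another 8 genes of the list lay below that mean. With the replicate block 8 rose, beside 30.3% of all tested genes. Isg15, the gene of a ubiquitin-like protein, had 18.5, 10.4 and 9.73 FPKM with vehicle and 102, 47.3 and 76.9 FPKM with DS-5272 (log2 fold change 2.45, limma adjusted p = 0.00334). Ifit1 and Rsad2, genes of antiviral proteins, both rose by 2.42 (limma adjusted p = 0.00443 and 0.00327). Tnf, the gene of a cytokine that can start necroptosis, had 4.31, 35.6 and 68.7 FPKM with vehicle and 19.9, 133 and 159 FPKM with DS-5272, and its groups overlapped (log2 fold change 1.68, limma adjusted p = 0.253, and 0.00152 with the replicate block). In both groups Tnf was lowest in replicate 1. Trim25, Rnaseh2a, Rnaseh2c, Samhd1, Adar, Pyhin1, Dnase1l1, Irf3, Casp8, Cflar, Fadd, Ripk1, Tnfaip3, Tnf, Ccl5 and Ifnb1 were chosen after their values were seen. So were the markers Itgam, Mpo, Kit, Bst2, Irf8, Vcam1, Cd5l, Marco, Adgre1, Gzma, Cd4, Pecam1, Hba-a1 and Hba-a2.

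**Figure D4:**
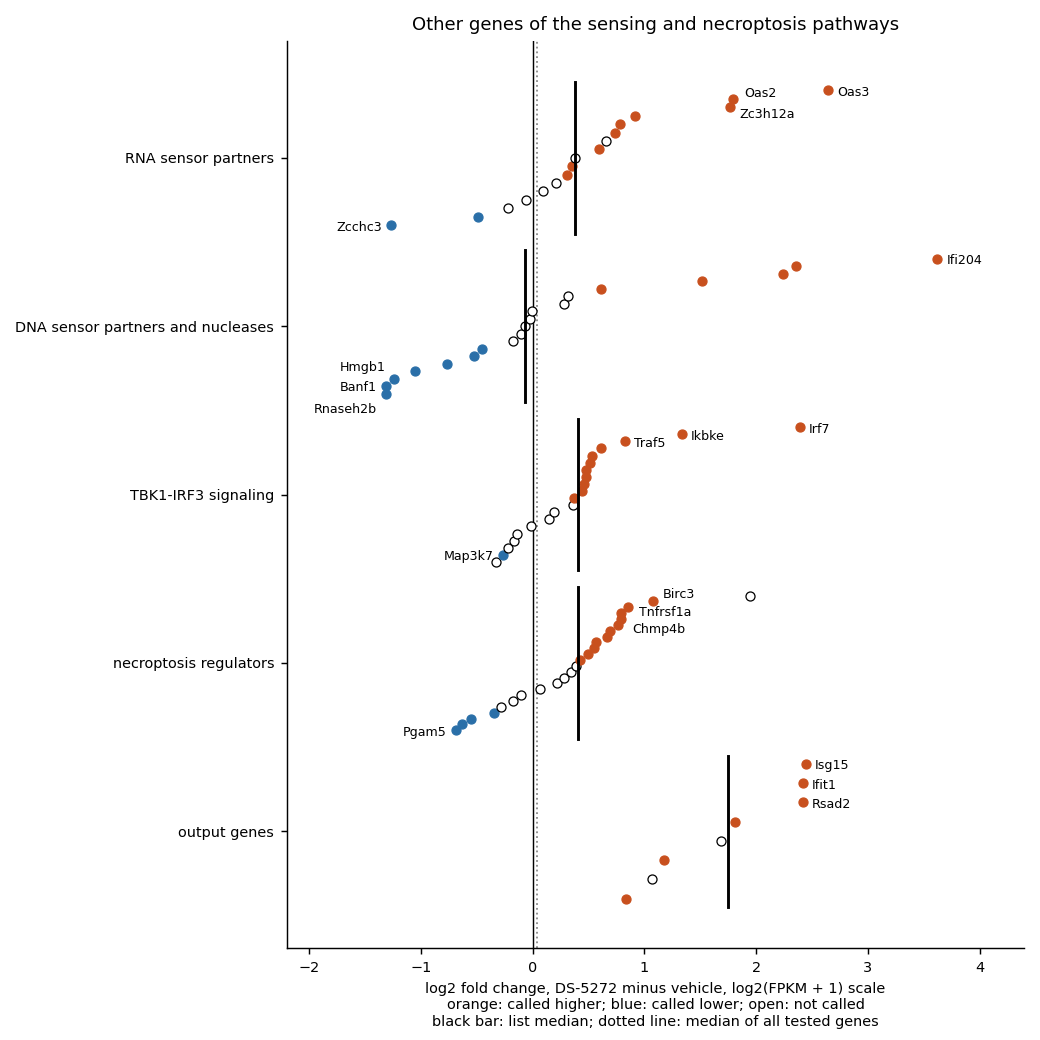
Log2 fold change (horizontal axis, DS-5272 minus vehicle) of the 88 tested genes in 5 lists of pathway partners, with genes past the threshold in orange (higher) or blue (lower), the others open, list medians as black bars and the median of all tested genes dotted. The DNA sensor partners spread from −1.31 to 3.62 around a median of −0.07, while the 8 output genes lie above 0.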

How the data were processed

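RNA-Seq values of 6 samples were used, grouped by the treatment label. The deposited values are gene FPKM, for which the authors trimmed reads with cutadapt 1.8.1, used TopHat 2.1.1 for alignment to GRCm38 transcripts and Cufflinks 2.2.1 for the values. No counts are given, so no count model was run. Depth was estimated from 716 low genes (under 0.15 FPKM throughout) and 451 single-transcript genes over 1500 nt.

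Lines with the same symbol were summed, and 433 lines that join several genes stayed separate entries. The limma fit (version 3.58.1, R 4.3.3, lmFit and eBayes with trend) was two-sided, took log2(FPKM + 1) of genes whose mean reached 1 FPKM, and used a threshold of 0.05 after Benjamini-Hochberg adjustment over 11130 genes. It was tested on simulated data. Fold changes on this scale understate the change of low genes. Same-numbered samples were taken as pairs because their deviations from group means correlated by 0.66, 0.21 and 0.43, each above 0.1. The labels name no shared batch, and the numbers did not set pairs 2 and 3 apart, as vehicle replicate 2 correlated by 0.335 with DS-5272 replicate 3 against 0.209 with DS-5272 replicate 2, and vehicle replicate 3 by 0.185 with DS-5272 replicate 2.

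The members and lists were chosen with earlier results of these data known. Named are the members, in each list the 3 largest called changes with its median and the largest called change against it, and the gene most similar to each member. Of the markers at 0 or in lists that moved, some are named. Alternatives were another pseudocount (0.1), filter (none, or 5 FPKM), scaling (upper quartile, median ratio, total, quantile), the replicate block, no trend, a fold limit, the highest line per symbol and leaving out each sample. Python 3.11.15, numpy 2.4.6 and pandas 2.3.3 served for the rest, and matplotlib 3.10.9 for figures.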

Additional observations from a re-analysis of the deposited data

How the results depend on the processing

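The rises of Zbp1, Dhx58 and Ddx58 passed the threshold in all 16 alternatives fitted for each gene. Below, a fold limit is a log2 fold change of 1 or more. The members that rose numbered 3 after rescaling to a common total, 3 with the fold limit and 4 to 7 when 1 sample was left out, with 0 that fell. With the replicate block 1 member fell. Of the 11130 tested genes, 1713 rose and 3555 fell after rescaling to a common total. Over the same genes 3179 fell with a common upper quartile and 3135 after quantile normalization. Without the trend 2443 fell, and with a mean of at least 5 FPKM 1997 of 8569 genes fell. With the fold limit 978 rose and 621 fell. Leaving out 1 sample gave 1623 to 2934 rises and 1389 to 2432 falls, with 1623 rises without vehicle replicate 2. The estimated depth was lower with DS-5272, so low genes carry more counting error there.

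The counts of each list below stand beside those over all tested genes in the same setting, given above. Among RNA sensor partners 4 fell after rescaling to a common total and after quantile normalization. In that list 1 fell with a mean of at least 5 FPKM, and 3 rose and 1 fell with the fold limit. With 1 sample left out 4 to 8 rose and 1 to 3 fell. Among DNA sensor partners 4 fell with the fold limit. In TBK1-IRF3 signaling 5 rose after rescaling to a common total and 2 with the fold limit. In that list 3 fell after rescaling to a common total or upper quartile or after quantile normalization, and 0 fell with the replicate block, without the trend or with the fold limit. With 1 sample left out 4 to 11 rose and 0 to 1 fell. Among the 24 necroptosis regulators 6 rose and 7 fell after rescaling to a common total, where 1713 and 3555 of all 11130 tested genes did. In that list 1 rose and 0 fell with the fold limit, and 2 to 4 fell with 1 sample left out. The cause was not tested. Signs turned for genes without a call. Aim2 was at −0.014 with a common upper quartile and at −0.13 with a common total, where Zfp677 was at −0.016. With 1 sample left out Ripk3 ran from −0.102 to 0.0220, and Ahsa1 from −0.131 to 0.0477, both above 0 without DS-5272 replicate 3. The replicate block changed the call of Tmem173 and Mb21d1 and of no other member. The ratios kept their sign in every alternative. With sign flips within pairs the exact permutation p was 0.25 for each, the smallest that 3 pairs allow, so this form cannot pass 0.05. The ISRE core was in 28.6% of the members' promoter windows and in 0% of windows that end at the start.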
